A study of Homo sapiens with 12 samples.

Results

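The neurotrophic receptor genes described here are RET, its co-receptors GFRA1, GFRA2 and GFRA3, the receptor kinases ALK, NTRK2 and NTRK3, the neurotrophin receptor NGFR, and SORT1. They were taken as a list of 9 genes by name. Each was followed through the probe sets annotated to exactly 1 gene symbol, and the probe set with the highest mean over the 12 arrays represented the gene. Of the 9 genes, 8 had such a probe set, among 19775 genes represented in this way, and SORT1 was not analysed here. The 8 genes held 28 probe sets, of which 7, from 4 genes, reached the level filter (a mean log2 signal of at least 3.78, the median of the probe sets that are not controls). RET, ALK, GFRA3 and NTRK2 were therefore among the 11774 genes tested, and GFRA1, GFRA2, NTRK3 and NGFR lay below the filter.

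The RNA came from SH-SY5Y, an established human neuroblastoma cell line grown in D-MEM/F-12 medium, and was hybridised to Affymetrix 3′ expression arrays. The labels give 4 groups of 3 arrays: oligomeric Aβ incubated for 6 h, its 6 h control, fibrillar Aβ incubated for 24 h, and its 24 h control. Aβ is amyloid beta, the peptide of the plaques of Alzheimer's disease. The form of the peptide and the time go together, so a difference between the oligomeric and fibrillar arrays cannot be told apart from one between 6 and 24 h. The labels do not say whether these hours are the exposure of the cells or the aggregation of the peptide, so differences between 6 and 24 h below are between groups with those labels, whichever the hours stand for. The cells are of 1 line, and the labels give neither the peptide's length and dose nor what the control cells received. Nothing in the labels says that replicates were separate cultures, so the p-values speak only of the spread among the arrays at hand, which may be technical.

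RET is the receptor tyrosine kinase for the GDNF family of ligands, which it binds only together with a GPI-anchored co-receptor: GFRA1 favours GDNF, GFRA2 neurturin and GFRA3 artemin. NTRK2 (TrkB) and NTRK3 (TrkC) are the receptor kinases for BDNF and neurotrophin 3, NGFR (p75) binds all neurotrophins, and sortilin, the product of SORT1, joins p75 in binding their precursors. ALK is a receptor kinase of developing sympathetic neurons and an oncogene in neuroblastoma, and RET and the Trk receptors steer survival and differentiation in the same sympathoadrenal lineage.

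The promoters of RET and ALK are shown because only RET among the tested receptor genes differed between the 6 and 24 h groups past the threshold, and ALK is the other receptor kinase with all its probe sets above the filter. Both are from RefSeq (GRCh38.p14) and run from 250 bases before to 50 bases after the gene start. RET lies on the plus strand at chr10:43076819-43077118 and ALK on the minus strand at chr2:29921537-29921836. They are written 5′ to 3′ on the strand of the gene, with GC boxes (GGGCGG or its reverse complement) in capitals:
RET: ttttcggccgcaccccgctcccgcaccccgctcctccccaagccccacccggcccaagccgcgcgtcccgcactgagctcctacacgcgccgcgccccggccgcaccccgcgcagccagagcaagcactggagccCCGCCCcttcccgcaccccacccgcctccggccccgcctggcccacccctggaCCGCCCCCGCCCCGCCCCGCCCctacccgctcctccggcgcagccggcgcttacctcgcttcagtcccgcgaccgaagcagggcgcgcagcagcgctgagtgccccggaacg
ALK: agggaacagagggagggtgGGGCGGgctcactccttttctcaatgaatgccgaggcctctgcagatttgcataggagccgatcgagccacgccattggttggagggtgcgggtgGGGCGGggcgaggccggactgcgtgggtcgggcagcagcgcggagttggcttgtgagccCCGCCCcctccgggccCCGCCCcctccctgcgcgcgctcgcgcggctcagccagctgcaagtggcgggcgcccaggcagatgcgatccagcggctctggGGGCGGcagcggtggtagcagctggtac

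Each of these promoters held 5 GC boxes on either strand. The RET window was 78.7% G and C with 41 CpG dinucleotides, and the ALK window 71% with 28, against medians of 58.7% and 14 over 35116 RefSeq promoters of the same length. The promoters counted do not cover every chromosome, and a GC box was present in 45% of them. Neither window held an AP-1 site (TGANTCA, in 7.71% of these promoters) or the core of a cyclic AMP response element (TGACG, in 24.6%). The ALK window held 4 E-boxes (CANNTG, in 68.7% of these promoters) and the RET window 0. These are matches of letters on both strands and say nothing of a factor's binding.

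All arrays had the same trimmed mean signal, and their medians lay between log2 3.89 and 4.12. Of the 10 noradrenergic neuroblast markers, 8 had a probe set and 7 were above the filter, among them PHOX2A and DBH, while TH, which encodes tyrosine hydroxylase, was low at a mean of 0.73. Their summed signal was 12450 to 13260 in the 6 h controls and 12853 to 13476 with oligomeric Aβ. It was 10888 to 12241 in the 24 h controls and 11145 to 11804 with fibrillar Aβ, so the sums of the 6 and 24 h groups did not overlap. The sums are of linear signal and weigh bright genes such as GATA3 (mean log2 12.1) most, and changes of single markers are not given here. Of the mesenchymal markers, 7 of 8 were above the filter, and their sums overlapped between groups (15203 to 17884). Among 8 glial, 7 epithelial and 8 blood and endothelial markers, 1, 2 and 2 were above the filter, and the highest sum of any of these lists on an array was 105. The array medians rose by 0.13 from the 6 h to the 24 h controls, and changes below are on the deposited scale.

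RET was higher in the groups labelled 24 h than in those labelled 6 h, in the controls and in the Aβ arrays, and neither form of Aβ changed it against its own control beyond the threshold. Its log2 signal in the 6 h controls was 11.08, 11.11 and 11.25 on the 3 arrays. With oligomeric Aβ it was 11.28, 11.24 and 11.35, each close to or above the highest 6 h control. In the 24 h controls it was 11.78, 11.73 and 12.03, and with fibrillar Aβ 11.83, 11.68 and 11.92. The lowest 24 h array lay above the highest 6 h array, whereas the treated and control arrays of each time overlapped. In order of the group means, the 6 h controls stood at 11.14 ± 0.09 (SD, n = 3), oligomeric Aβ at 11.29 ± 0.06, fibrillar Aβ at 11.81 ± 0.12 and the 24 h controls at 11.85 ± 0.16. The arrays of the first pair in this order overlapped narrowly and those of the last pair widely, and neither difference passed the test.

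**Figure D1:**
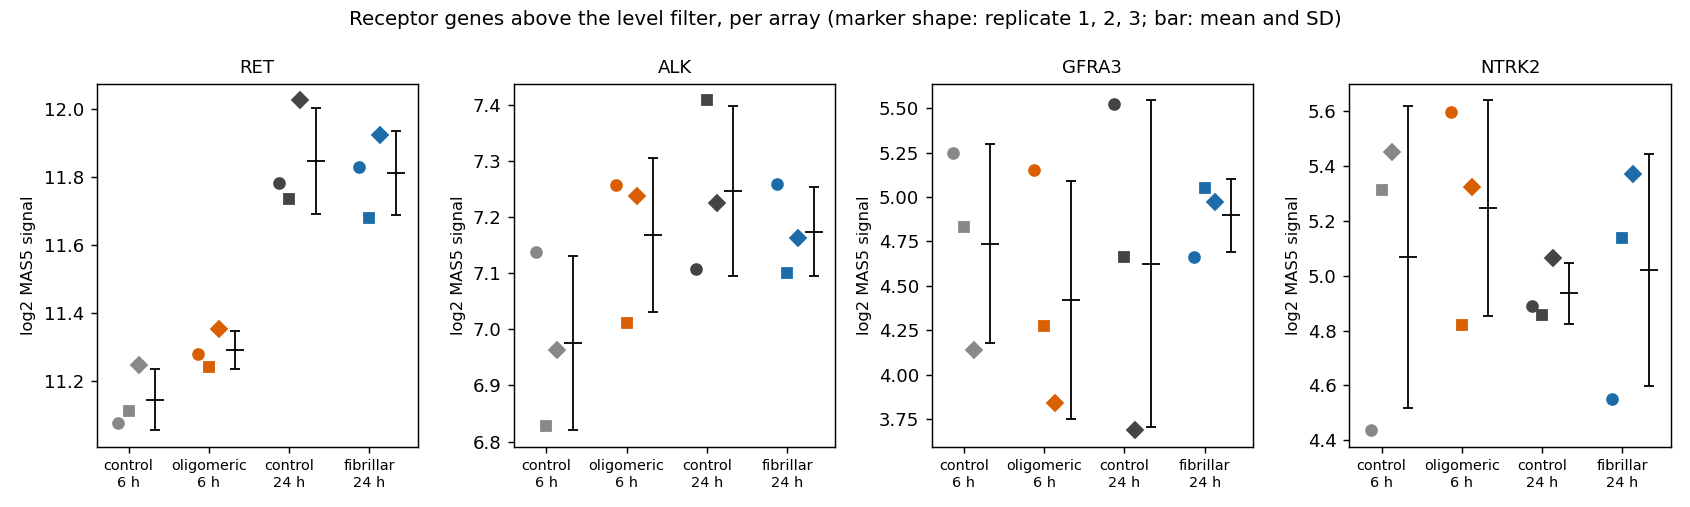
Log2 MAS5 signal (y axis, a separate scale in each panel) of RET, ALK, GFRA3 and NTRK2 on every array of the 4 groups (x axis), with marker shape for replicate number and a bar for the mean and SD of 3 arrays. The 6 RET arrays of 24 h, from 11.68 to 12.03, lie above all those of 6 h, while the groups of ALK, GFRA3 and NTRK2 overlap in every comparison.

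Between the controls, RET rose by 0.70 on the log2 scale from 6 to 24 h (SE 0.08, 95% interval 0.53 to 0.88, limma adjusted p = 9.29e-05), a 1.63-fold higher signal. From oligomeric Aβ at 6 h to fibrillar Aβ at 24 h it rose by 0.52 (SE 0.08, interval 0.34 to 0.70, adjusted p = 0.000917), a 1.43-fold higher signal. RET was the only one of the 4 tested receptor genes called in either comparison, where 11.7% and 15.1% of all tested genes were called at an adjusted p under 0.05. Called higher were 3.76% and 6.51% of all genes, and called lower 7.92% and 8.61%. Its arrays did not overlap between the times, which held for 32.6% of all tested genes in the controls and 31.2% in the Aβ arrays. In a culture, more RNA per cell and a larger share of cells with the transcript cannot be told apart.

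The other RET probe sets moved less. 205879_x_at read 6.65, 7.11 and 6.97 in the 6 h controls against 7.31, 7.07 and 7.37 in the 24 h controls, a difference of 0.34 (adjusted p = 0.171 over all probe sets above the filter) with overlapping arrays. 215771_x_at read 6.62, 7.11 and 6.83 against 7.11, 6.91 and 7.08, a difference of 0.18 (adjusted p = 0.437). In the Aβ arrays their differences were 0.14 and 0.23 (adjusted p = 0.617 and 0.293). All 3 RET probe sets were therefore higher on average at 24 h in both comparisons, and only 211421_s_at passed the test. With the mean of the 3 probe sets in its place, the RET change was 0.41 in the controls (adjusted p = 0.0152) and 0.29 in the Aβ arrays, where the call was lost (adjusted p = 0.059).

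The control probe sets of the arrays also differed between the 6 and 24 h groups. The 5′ probe set of 18S ribosomal RNA lay between log2 9.31 and 10.7 on the 6 h arrays and between 11.4 and 11.9 on the 24 h arrays. The 3′ signal of GAPDH exceeded its 5′ signal by 0.77 to 0.83 in the 6 h controls, 0.66 to 0.80 with oligomeric Aβ, 0.47 to 0.52 in the 24 h controls and 0.49 to 0.81 with fibrillar Aβ. For ACTB this difference was 2.82 to 3.25 in the 6 h controls and 2.61 to 2.88 with oligomeric Aβ. It was 2.34 to 2.65 in the 24 h controls and 2.48 to 3.06 with fibrillar Aβ. With the mean of the GAPDH and ACTB differences as a covariate, the RET changes were 0.79 (limma adjusted p = 0.00428) and 0.53 (adjusted p = 0.000889). Neither difference overlapped between the 6 and 24 h controls, so this fit cannot tell them apart from the labelled hours there. Over all tested genes it called 467 between the controls, against 1375 without the covariate. Leaving out any 1 array gave 0.61 to 0.76 in the controls and 0.46 to 0.58 in the Aβ arrays, all with RET called. The part of the 18S signal and of the noradrenergic markers in the RET change was not tested.

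**Figure D2:**
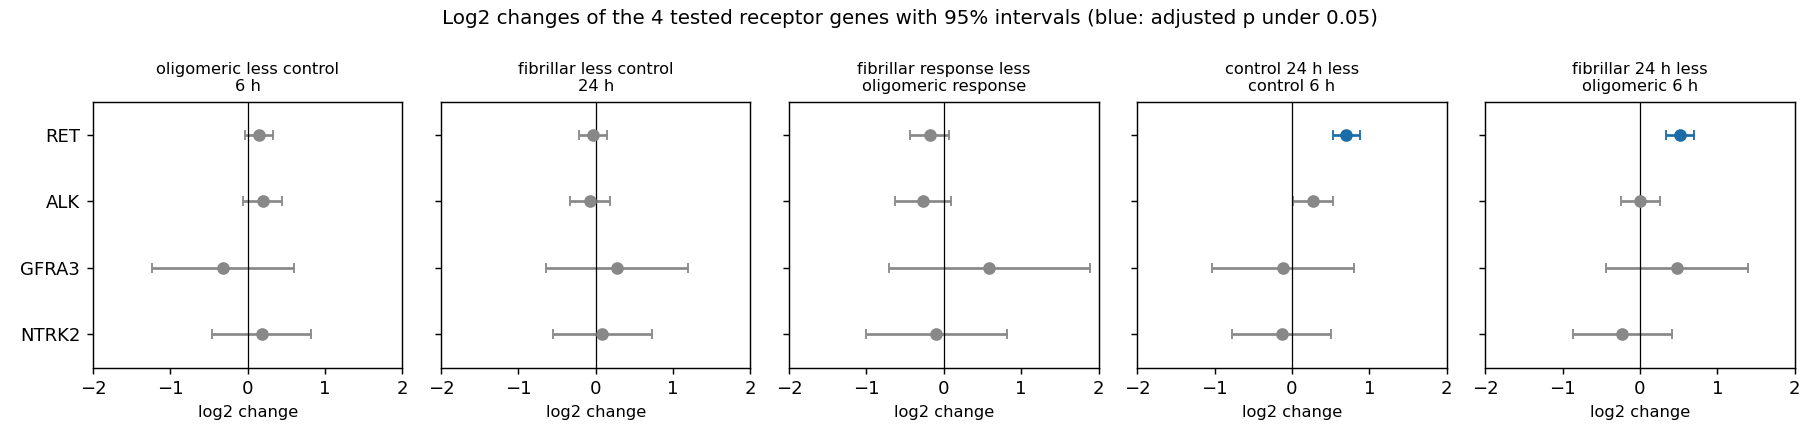
Log2 changes (x axis) of RET, ALK, GFRA3 and NTRK2 (y axis) in the 5 comparisons, one panel each, with 95% intervals from limma over all 12 arrays, blue where the adjusted p is under 0.05. Only the RET changes of 0.70 and 0.52 between the times are blue, and the intervals of GFRA3 and NTRK2 are wider than those of RET and ALK.

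ALK, with both its probe sets above the filter, did not pass the test in any comparison. Its log2 signal was 7.14, 6.83 and 6.96 in the 6 h controls and 7.26, 7.01 and 7.24 with oligomeric Aβ. In the 24 h controls it was 7.11, 7.41 and 7.23, and with fibrillar Aβ 7.26, 7.10 and 7.16. All 4 groups overlapped, with means between 6.98 ± 0.16 and 7.25 ± 0.15. The largest ALK difference was between the controls, 0.27 higher at 24 h (SE 0.12, 95% interval 0.01 to 0.53), with an unadjusted limma p of 0.0395 and an adjusted p of 0.163. Between the Aβ arrays the change was 0.01 (interval -0.25 to 0.26, adjusted p = 0.982). Its second probe set, 208211_s_at, had group means of 5.22, 5.22, 5.17 and 5.25 in the same order and overlapped throughout.

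With oligomeric Aβ at 6 h no tested receptor gene passed the test against its control. limma called 0 of the 4, with 0 at an unadjusted p under 0.05, and 0% of all tested genes, of which 327 had an unadjusted p under 0.05. RET was 0.15 higher (SE 0.08, 95% interval -0.03 to 0.32) and ALK 0.19 higher (SE 0.12, interval -0.06 to 0.45). The precision of GFRA3 and NTRK2 was lower, with changes of -0.32 (interval -1.24 to 0.60) and 0.18 (interval -0.46 to 0.82). Each of these 4 changes had an adjusted p of 1.0. A change of RET by more than 0.32 in either direction lay outside its interval, whereas for GFRA3 a change of 1 unit down lay inside. The arrays of both groups overlapped for all 4, against 7.36% of all tested genes without overlap.

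Fibrillar Aβ at 24 h also left all 4 below the threshold. limma called 0 of the 4, against 1.19% of all tested genes. An unadjusted limma p under 0.05 was found for 0 of the 4 and for 1670 of the 11774 genes tested. RET changed by -0.04 (SE 0.08, 95% interval -0.21 to 0.14, adjusted p = 0.889) and ALK by -0.07 (interval -0.33 to 0.18, adjusted p = 0.845). The sign of both turned when each array was centred on its median, to 0.04 for RET and 0.000725 for ALK. GFRA3 changed by 0.27 (interval -0.65 to 1.19, adjusted p = 0.841) and NTRK2 by 0.08 (interval -0.56 to 0.72, adjusted p = 0.936). The arrays again overlapped for all 4, against 19.7% of all tested genes without overlap.

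The fibrillar response less the oligomeric response was tested directly. It passed for 0 of the 4 receptor genes, against 0.0425% of all tested genes. At an unadjusted limma p under 0.05 were 0 of the 4 and 1004 of the 11774 genes tested. It was -0.18 for RET (SE 0.12, 95% interval -0.43 to 0.07, adjusted p = 0.717) and -0.27 for ALK (SE 0.17, interval -0.63 to 0.10, adjusted p = 0.717). For GFRA3 it was 0.59 (interval -0.71 to 1.89) and for NTRK2 -0.10 (interval -1.003 to 0.81). By construction this is also the test of whether the RET change of 0.52 in the Aβ arrays differs from that of 0.70 in the controls, so these were not shown to differ.

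GFRA3, the artemin co-receptor and the only GFRA gene above the filter, varied more within groups than between them. Its log2 signal was 5.25, 4.83 and 4.14 in the 6 h controls and 5.15, 4.27 and 3.84 with oligomeric Aβ. It was 5.53, 4.66 and 3.69 in the 24 h controls, the widest group, and 4.67, 5.05 and 4.97 with fibrillar Aβ, the tightest. The groups overlapped in all comparisons, with means from 4.42 ± 0.67 to 4.90 ± 0.20. Between 6 and 24 h it changed by -0.11 in the controls (SE 0.43, adjusted p = 0.902) and 0.48 in the Aβ arrays (adjusted p = 0.510). These values are of 229936_at, with a mean of 4.67. The second GFRA3 probe set, 214479_at, lay below the filter at a mean of 0.25, and its groups overlapped as well.

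NTRK2, the BDNF receptor, likewise stayed within its spread. It read 4.44, 5.31 and 5.45 in the 6 h controls and 5.60, 4.82 and 5.32 with oligomeric Aβ. It read 4.89, 4.86 and 5.06 in the 24 h controls and 4.55, 5.14 and 5.37 with fibrillar Aβ. Every group overlapped every other, and the means lay between 4.94 ± 0.11 and 5.25 ± 0.39. Its changes from 6 to 24 h were -0.13 in the controls (SE 0.30, adjusted p = 0.829) and -0.23 in the Aβ arrays (adjusted p = 0.673).

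GFRA1, the GDNF co-receptor, was the receptor gene below the filter with the clearest step. Its log2 signal was 3.71, 4.80 and 3.67 in the 6 h controls and 3.97, 4.07 and 3.59 with oligomeric Aβ. It was 1.51, 0.88 and 3.09 in the 24 h controls and 3.55, 3.59 and 4.04 with fibrillar Aβ. All 3 of the 24 h controls lay below every other array, and the other groups overlapped. When all 19775 genes were fitted without the filter, the change from the 6 h to the 24 h controls was -2.24 (SE 0.63, 95% interval -3.57 to -0.90, adjusted p = 0.0478), a comparison in which 5.55% of these genes were called. Fibrillar Aβ was 1.90 above its control (SE 0.63), which missed the threshold (adjusted p = 0.256). With each of the 41091 probe sets of 1 symbol fitted instead, the adjusted p of the first was 0.0561, and 3.88% of those probe sets were called.

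The size of the GFRA1 step depended on how low signals were treated. After 16 signal units were added before the log, the control difference was -0.72 and the fibrillar difference 0.54. The mean of the 3 GFRA1 probe sets gave -0.98 and 0.86. The other probe sets differed less: from the 6 h to the 24 h controls 230163_at changed by -0.46 and 205696_s_at by -0.25, in the same direction as 227550_at. With fibrillar Aβ, 230163_at was 0.73 above its control, and 205696_s_at stood at -0.05. All 3 lay below the filter, where a log2 unit is a few units of signal.

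**Figure D3:**
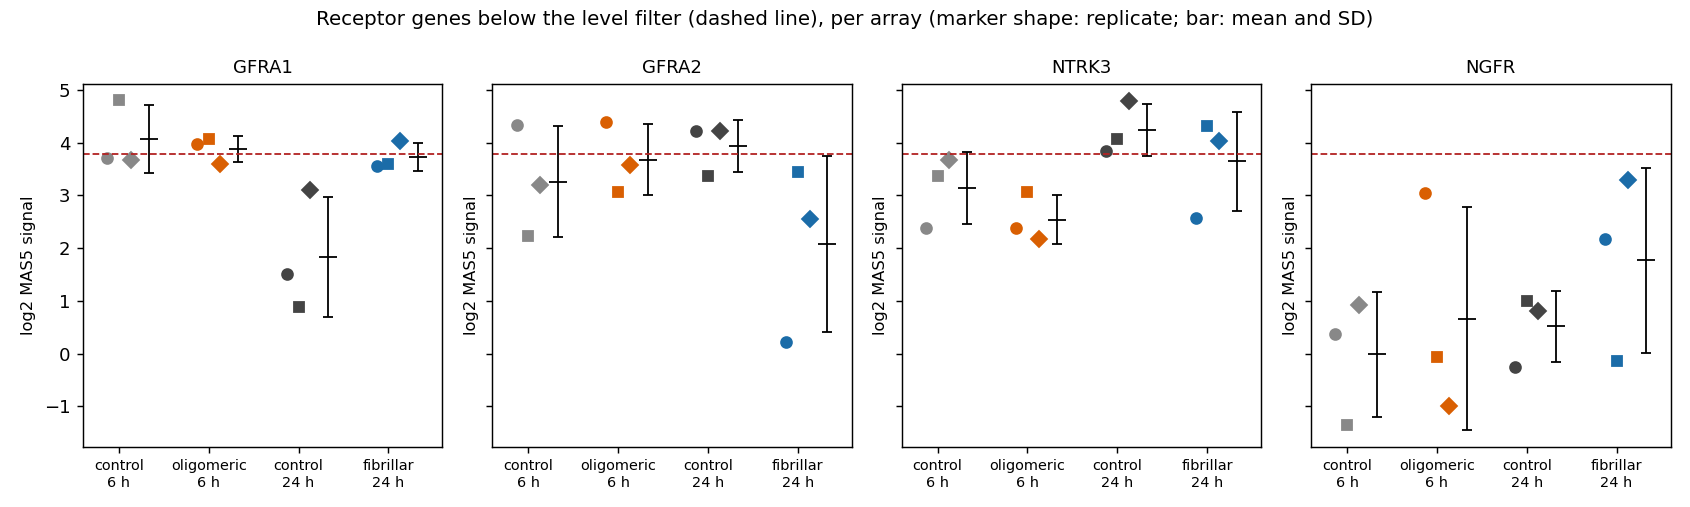
Log2 MAS5 signal (shared y axis) of GFRA1, GFRA2, NTRK3 and NGFR on every array of the 4 groups (x axis), with marker shape for replicate number, a bar for the mean and SD of 3 arrays, and a dashed line at the filter level of 3.78. The 24 h controls of GFRA1, at 1.51, 0.88 and 3.09, lie below its other arrays, and the NGFR arrays are spread over more than 4 log2 units.

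GFRA2, the neurturin co-receptor, read 4.34, 2.24 and 3.19 in the 6 h controls and 4.39, 3.06 and 3.58 with oligomeric Aβ. It read 4.22, 3.37 and 4.22 in the 24 h controls and 0.21, 3.44 and 2.56 with fibrillar Aβ. The fibrillar group overlapped its control, and its first array was the lowest. Without the filter the difference was -1.87 (SE 0.80, limma adjusted p = 0.411). The other GFRA2 probe set, 205722_s_at, went the other way, 0.78 higher with fibrillar Aβ than in its control, with overlapping arrays.

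NTRK3, the neurotrophin 3 receptor, read 2.37, 3.37 and 3.67 in the 6 h controls and 2.38, 3.06 and 2.16 with oligomeric Aβ. It read 3.84, 4.07 and 4.78 in the 24 h controls and 2.58, 4.32 and 4.03 with fibrillar Aβ. The 24 h controls lay above the 6 h controls without overlap, and the Aβ groups overlapped. Without the filter the differences, 24 h less 6 h, were 1.10 in the controls and 1.11 in the Aβ arrays (limma adjusted p = 0.395 and 0.364). Its 9 probe sets moved both ways in the controls, from a rise of 2.20 at 228849_at to -2.46 at 217033_x_at.

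NGFR, the p75 receptor, had 1 probe set, with its arrays spread widely at low signal. It read 0.38, -1.36 and 0.92 in the 6 h controls and 3.05, -0.06 and -1.002 with oligomeric Aβ. It read -0.25, 0.99 and 0.81 in the 24 h controls and 2.17, -0.15 and 3.28 with fibrillar Aβ. All groups overlapped, and the fibrillar difference of 1.25 had a standard error of 1.23 (limma adjusted p = 0.815 without the filter).

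Over all 28 receptor probe sets, arrays of the 2 groups did not overlap for 2 in the oligomeric comparison (7.14%), 4 in the fibrillar comparison (14.3%), 7 between the controls (25%) and 5 between the Aβ arrays (17.9%). The same held for 8.96%, 15.2%, 21.6% and 20.6% of the 41091 probe sets with 1 symbol, so the receptor probe sets lay near the background in each comparison. Probe sets of 1 gene read overlapping transcripts and are not independent.

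**Figure D4:**
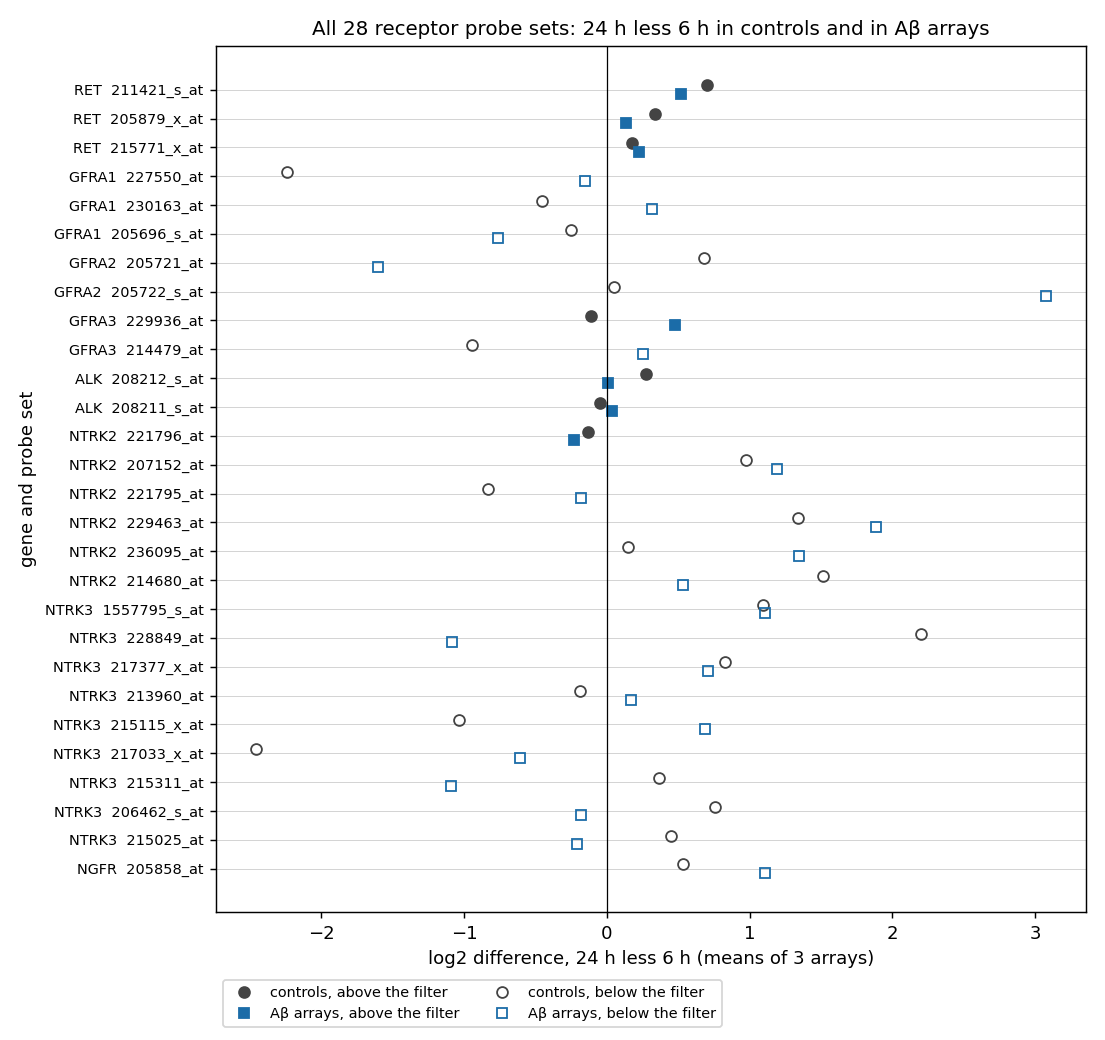
Differences of the group means, 24 h less 6 h (x axis, log2), for the 28 probe sets of the 8 receptor genes (y axis), with circles for the controls and squares for the Aβ arrays, filled where the probe set is above the filter. The filled points stay between -0.23 and 0.70, and the open points, at low signal, reach from -2.46 to 3.08.

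The ligands, adaptors and kinases around these receptors were taken from 8 lists of 100 genes in all, of which 84 had a probe set and 72 were tested. With oligomeric Aβ 0 of the 72 were called, and the median change was 0.01 against -0.0046 over all genes. An unadjusted limma p under 0.05 was found for 2 of the 72 and for 327 of the 11774 genes tested. The heparan sulfate proteoglycan SDC3 was 0.45 higher (SE 0.20) and the GDNF-binding adhesion molecule NCAM1 stood at -0.17 (SE 0.06), both with a limma adjusted p of 1.0. With fibrillar Aβ 15 of the 72 had an unadjusted limma p under 0.05, as did 1670 of the 11774 genes tested. The median change was 0.05 against -0.00053 over all genes, and 1 of the 72 was called (1.39%, against 1.19% of all genes).

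That gene was IRS2, an adaptor of insulin and growth factor receptors. Its level was 11.42 ± 0.06 with fibrillar Aβ and 11.08 ± 0.09 in the 24 h controls (SD, n = 3), a rise of 0.34 (SE 0.07, limma adjusted p = 0.0395). It did not stay called when fibrillar replicate 1 was left out (adjusted p = 0.113), nor without fibrillar replicate 3 (0.150) or control replicate 1 (0.177), 2 (0.0737) or 3 (0.0792). DOK4, a docking protein of RET, stood at -0.28 (SE 0.08, adjusted p = 0.106). With the mean of the probe sets DOK4 was called at -0.69 (adjusted p = 0.0126), and IRS2, at 0.31, was not (adjusted p = 0.0902). In the difference of the responses 0 of the 72 were called, with 8 at an unadjusted limma p under 0.05, as were 1004 of the 11774 genes tested. The ERK pathway inhibitor SPRY2 stood at 0.55 (adjusted p = 0.252, or 0.0398 without fibrillar replicate 2) and the kinase MAP2K5 at -0.60 (adjusted p = 0.543).

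Between the 6 and 24 h controls 10 of the 72 pathway genes changed (13.9%, against 11.7% of all genes), 3 up and 7 down. The count was 4 without 6 h control replicate 2, 5 without 24 h control replicate 3 and 16 with median centring. The median change was -0.06, against -0.02 over all genes. Of the 13 downstream kinases tested, 1 was called higher and 3 lower (30.8%), the highest share called among the lists. Of all tested genes 3.76% were called higher and 7.92% lower. The kinase list had a median of -0.38, with 5 of the 13 changes positive, and it is named here because its share was the highest. RPS6KA3, a kinase activated by ERK, fell from 8.34 ± 0.02 to 7.64 ± 0.11 (SD, n = 3), a change of -0.70 (SE 0.10, limma adjusted p = 0.000509). MAP2K1, the kinase that activates ERK, changed by -0.46 (SE 0.08, adjusted p = 0.0015). CBL, the ubiquitin ligase that sends activated receptor kinases to degradation, changed by -0.44 (SE 0.08, adjusted p = 0.00218), or -0.20 with the mean of its probe sets (adjusted p = 0.389).

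The 3 pathway genes that rose in the controls were closer to the threshold, and with each array centred on its median none of them was called (adjusted p = 0.189 for RPS6KA2, 0.157 for SHC3 and 0.144 for SOS1). RPS6KA2, a relative of RPS6KA3, rose by 0.35 (SE 0.08, limma adjusted p = 0.0122), a call lost without 6 h control replicate 2 (0.0544) or 24 h control replicate 1 (0.0564) or 3 (0.0601). The mean of its probe sets gave 0.14 (adjusted p = 0.507). The neuronal adaptor SHC3 rose by 0.38 (SE 0.11, adjusted p = 0.0394), but the mean of its probe sets gave -0.31, and the call was lost without 6 h control replicate 1 (0.0706) or 2 (0.182) or 24 h control replicate 2 (0.101) or 3 (0.154). SOS1, the exchange factor that activates RAS, rose by 0.44 (SE 0.13, adjusted p = 0.0453). Its call was lost without 6 h control replicate 1 (0.0928) or 2 (0.214) or any 24 h control (0.0726, 0.122 and 0.118), and the mean of its probe sets gave 0.20 (adjusted p = 0.201).

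Between the Aβ arrays of 6 and 24 h, 12 of the 72 changed (16.7%, against 15.1% of all genes), 5 up and 7 down, and the median change was -0.02, as over all genes. The count was 4 without oligomeric replicate 2, 7 without oligomeric replicate 3 or with median centring, and 6 without fibrillar replicate 3. SPRY2 was 9.59 ± 0.17 with oligomeric and 10.10 ± 0.25 with fibrillar Aβ (SD, n = 3), a rise of 0.52 (SE 0.11, limma adjusted p = 0.00506). PTN, which encodes the heparin-binding growth factor pleiotrophin, rose by 0.35 (SE 0.08, adjusted p = 0.0113), a call lost without oligomeric replicate 2 (0.0555) or fibrillar replicate 1 (0.0579). KIDINS220, a scaffold protein that binds Trk receptors and p75, rose by 0.29 (SE 0.08, adjusted p = 0.0168), a call lost without oligomeric replicate 2 (0.0543) or 3 (0.0619) or fibrillar replicate 3 (0.0829). The mean of the KIDINS220 probe sets gave 0.18 (adjusted p = 0.257).

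Among the genes that fell in the Aβ arrays, RPS6KA3 changed by -0.63 (SE 0.10, limma adjusted p = 0.00101). AKT1, a kinase of survival signalling, was 6.32 ± 0.22 with oligomeric and 5.51 ± 0.18 with fibrillar Aβ (SD, n = 3), a change of -0.81 (SE 0.17, adjusted p = 0.00547). CBL, MAP2K1 and RPS6KA3 were called lower in both time comparisons, which is 30% of the 10 called in the controls and 25% of the 12 called in the Aβ arrays. For all tested genes these shares were 52.1% and 40.3%. These comparisons share no arrays. Of the ligands tested, PTN was called in this comparison alone, and NRTN, PSPN and MDK in none of the 5. Of the 4 neurotrophins listed, 1 had a probe set of 1 symbol, which lay below the filter, and the others were not analysed here.

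**Figure D5:**
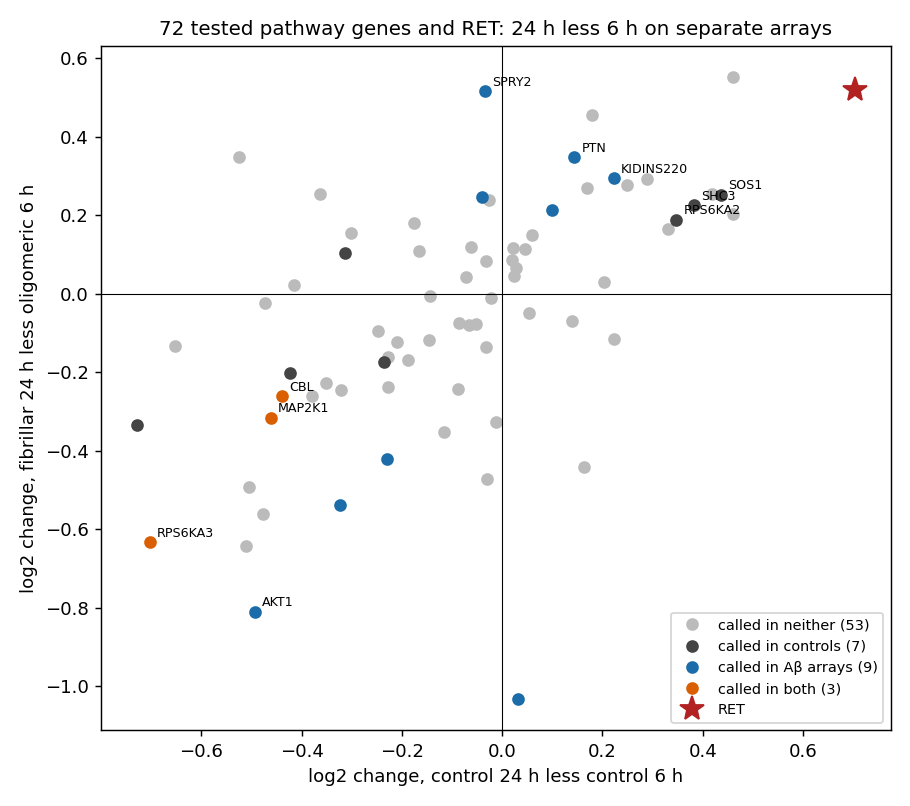
Log2 change from 6 to 24 h in the controls (x axis) and in the Aβ arrays (y axis) for the 72 tested pathway genes, coloured by the comparison in which the adjusted p is under 0.05, and for RET (star). RET, at 0.70 and 0.52, lies at the upper right, and RPS6KA3, at -0.70 and -0.63, at the lower left.

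The genes whose pattern over the 12 arrays was most like each tested receptor gene were found by Pearson's r over all other tested genes, as a description of arrays that differ by time and treatment. For RET they were BDH2, a dehydrogenase (r = 0.98), and the zinc finger gene ZNF711 (r = 0.97), which rose by 0.49 and 0.34 between the controls (limma adjusted p = 0.00169 and 0.00235). For ALK they were CIMIP2C (r = 0.85) and LOC101927166 (r = 0.84), which stood 0.50 and 0.84 higher at 24 h between the controls (limma adjusted p = 0.453 and 0.0447). For GFRA3 they were RAB33B (r = 0.85) and HMOX2 (r = 0.83), and for NTRK2 PPP3CB-AS1 (r = 0.84) and RAB2A (r = 0.83). Between the controls these changed by -0.06, -0.07, -0.04 and -0.02 (limma adjusted p from 0.853 to 0.961).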

How the data were processed

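The values the authors deposited are probe set signals on the log2 scale, computed with MAS5 per the submitters' processing notes, for 12 arrays in 4 groups of 3. No version, scanner file or detection call was used here, and the values were not normalized further. Of 54675 probe sets, 62 were controls, 41091 carried 1 gene symbol in GEO's platform annotation, 1801 several and 11721 none. limma 3.58.1 (R 4.3.3) fitted group means over all 12 arrays with a variance trend, and Benjamini-Hochberg adjustment ran over the 11774 genes above the filter (signal 13.8). Precision is limited by the number of arrays: changes had a median standard error of 0.13. Each tested receptor gene is reported in every comparison. For GFRA1, GFRA2, NTRK3 and NGFR, below the filter, array values are given for every group but differences for only some comparisons. Among those left out, the GFRA1 difference of responses was 2.08 (SE 0.90, limma adjusted p = 0.622 without the filter). Of the other pathway genes, up to 3 called in each direction with the smallest p are named, or 1 where none was called; one such gene is not reported here. For each tested receptor gene, 2 genes are named by likeness. Members and lists were chosen with earlier results of these data known. The alternatives were other scalings, filters, probe set rules, variance models and an offset of 16. Others were the replicate block, the GAPDH and ACTB covariate and leaving out each array. The model was also run on simulated data with independent noise for each gene and no shifts between arrays, and no result above rests on it. Promoters were read with Python 3.11.15, and one receptor gene (SORT1) was not analysed here.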

Additional observations from a re-analysis of the deposited data

How the results depend on the processing

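The rise of RET between the controls was called in 19 of 19 alternatives (0.41 to 0.79) and that between the Aβ arrays in 18 of 19 (0.29 to 0.58). Without the filter, 2 receptor genes were called between the controls, RET and GFRA1. With the mean of the probe sets, 0 were called between the Aβ arrays. The count of pathway genes called with fibrillar Aβ fell from 1 to 0 without the filter or with every probe set. It was also 0 with a constant prior variance, the groups alone or the GAPDH and ACTB covariate. The count rose to 3 with array weights and ran from 0 to 3 without single arrays. Between the controls it was 16 with median centring, 6 without the filter, with a constant prior variance or with the covariate, and 4 to 9 without single arrays. Between the Aβ arrays it was 7 with median centring and 4 to 13 without single arrays, and for the difference of responses 0 to 1. The causes were not tested.

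Among called changes, the sign turned when probe sets were averaged for SHC3 between the controls, from 0.38 to -0.31. The other turned signs were in changes that were not called. The NTRK2 difference of responses was 0.0211 with quantile normalization, 0.0417 with median centring and 0.31 with the covariate, and -0.31 to 0.22 without single arrays. With fibrillar Aβ, RET was 0.0363 and ALK 0.000725 with median centring, and ALK 0.0044 with the mean of probe sets. Without single arrays the fibrillar change ran from -0.0939 to 0.052 for RET, -0.14 to 0.0083 for ALK, -0.20 to 0.72 for GFRA3 and -0.0923 to 0.32 for NTRK2. The oligomeric change of NTRK2 ran from -0.14 to 0.39. Between the controls GFRA3 ran from -0.56 to 0.36 and NTRK2 from -0.45 to 0.0626, and between the Aβ arrays ALK ran from -0.0736 to 0.04995 and NTRK2 from -0.44 to 0.0077.

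The labels state no pairing of replicates, and whether equal numbers mark pairs was not tested. Deviations of same-numbered arrays correlated at 0.03, 0.09 and -0.02 at 6 h and at 0.03, 0.07 and 0.07 at 24 h. Those of differently numbered treated and control arrays correlated at -0.12 to 0.09 at 6 h. At 24 h they correlated at -0.06 to 0.0024, below all same-numbered ones. With the replicate number as a block, RET kept its calls (adjusted p = 1.6e-05 and 0.000189), and pathway genes called were 0, 2, 0, 10 and 15 in the order oligomeric, fibrillar, difference, controls and Aβ arrays.

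Over all tested genes, median centring moved the calls between the controls from 443 higher and 932 lower (32.2% higher) to 140 and 1769 (7.33% higher), and those with fibrillar Aβ from 67.1% to 86.1% higher. Counts of all genes called ran from 7 to 268 with fibrillar Aβ, 0 to 64 for the difference, 467 to 1909 between the controls and 992 to 2000 between the Aβ arrays.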

Other observations

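Some receptor probe sets below the filter had arrays that did not overlap between groups. They are given as values and were chosen after their values were seen. With the 41091 probe sets of 1 symbol fitted, none of the differences named below passed the threshold. The NTRK2 probe set 229463_at read 2.20, 1.68 and 1.07 in the 6 h controls, -1.10, 0.79 and 0.71 with oligomeric Aβ, 3.05, 3.30 and 2.59 in the 24 h controls and 1.80, 2.09 and 2.17 with fibrillar Aβ. It was lower with each form of Aβ than in the matched control and higher at 24 h than at 6 h, unlike 221796_at, the brightest NTRK2 probe set, whose groups overlapped. The other NTRK2 probe sets differed in direction. By group means, 207152_at and 221795_at were higher with each form of Aβ than in the matched control, 236095_at was lower and 214680_at was mixed. The NTRK3 probe set 228849_at read 4.75, 4.67 and 4.49 in the 24 h controls and 1.09, 4.14 and 2.48 with fibrillar Aβ. The GFRA2 probe set 205722_s_at read 0.29, -1.48 and -0.59 with oligomeric Aβ and 0.47, 3.47 and 3.51 with fibrillar Aβ. Its difference was 3.08 (SE 1.17), while 205721_at, the brighter GFRA2 probe set, went the other way at -1.60 (SE 0.80).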
